A study of Homo sapiens with 9 samples.

Results

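Genes of the endoplasmic reticulum (ER) that fold, import and dispose of secretory proteins were followed in the human monocytic leukaemia line THP-1 after incubation with ectosomes. These vesicles, shed directly from the cell surface, came from Huh7, a human hepatoma line. The 46 genes were taken by symbol from the 30000 rows of the deposited count table, 1 row each: chaperones and disulfide isomerases, the stress sensors and XBP1, the translocon, signal peptidase, oligosaccharyltransferase and the ER-associated degradation (ERAD) machinery. The 9 RNA-seq libraries fell into 3 groups of 3. The groups were THP-1 cells given ectosomes labelled PKM2_KD, THP-1 cells given ectosomes labelled Scramble, and THP-1 cells labelled Ctrl with no ectosome agent named. The labels list PKM2_KD, Scramble and Ctrl as the shRNA of the THP-1 samples, with ectosomes as the agent in the first 2 groups, and do not say in which cells the shRNA was expressed. The shRNA was read here as that of the Huh7 cells that gave the ectosomes. Those labelled PKM2_KD, from a knockdown of PKM2, a pyruvate kinase isoform encoded by PKM, are called PKM2-knockdown ectosomes. The dose of ectosomes, the incubation time, and whether the knockdown line was a clone or a pool were not stated in the labels.

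Proteins bound for secretion or for membranes enter the ER through the Sec61 translocon, lose their signal peptide to signal peptidase, receive glycans from oligosaccharyltransferase and are folded by chaperones and disulfide isomerases, while those that fail to fold are returned to the cytosol for degradation. When unfolded proteins accumulate, the membrane sensors IRE1 (encoded by ERN1), PERK (EIF2AK3) and ATF6 start the unfolded protein response. ATF6 and the spliced form of XBP1 are transcription factors that raise chaperone, translocon and ERAD genes. In monocytes and macrophages this machinery serves the output of cytokines, granule proteins and receptors.

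Every library held between 17744587 and 23864381 counts, and all 46 genes passed the filter on low counts that left 18437 rows for testing. Levels are given as CPM, the usual depth-scaled counts, with library totals adjusted by the TMM method of edgeR, and each ± gives the SD around a mean of n = 3 libraries. The labels do not say whether replicates were separate cultures. The p-values therefore reflect the spread among these libraries alone, and this spread may be technical. Library 3 of the control stood apart from the other control libraries on the leading principal component (62.2% of the variance), at -103 against -73.6 and -73.0. Relative to the other control libraries it differed in the 46 genes by between -0.91 (XBP1) and 0.70 (CALR) on the log2 scale, with a median of -0.03, beside -0.01 for all tested rows. Of 14 THP-1 markers all were in the table, with a summed level of 2155 to 2311 CPM with PKM2-knockdown ectosomes, 1395 to 1450 CPM with scramble ectosomes and 2314 to 2953 CPM in control cells. CD68 averaged below 1 CPM in all groups and MPO below 1 CPM with both kinds of ectosomes. The sums hide markers that differed in opposite directions. In the same order of groups, AZU1 averaged 255, 79.4 and 1015 CPM, and CSF1R averaged 351, 85.0 and 35.5 CPM. Of 18 hepatocyte markers, 10 were in the table, and their summed level ran from 46.2 to 52.7 CPM with PKM2-knockdown ectosomes, from 9.93 to 10.7 CPM with scramble ectosomes and from 17.6 to 21.2 CPM in control cells. Most of these counts were from SERPINA1, APOA2 and GPC3. SERPINA1 averaged 37.4, 3.53 and 2.01 CPM in that order of groups, and GPC3 averaged 4.75, 2.69 and 13.4 CPM. This sum, too, hides opposite directions. APOA1, TTR, RBP4, AMBP and VTN, all below 1 CPM, were higher with scramble than with PKM2-knockdown ectosomes, and the other markers in the table were lower. ALB was at 7 to 10 reads per library with PKM2-knockdown ectosomes, 2 to 3 with scramble ectosomes and 1 to 4 in control cells, and TTR had 0 reads in all libraries with PKM2-knockdown ectosomes and in all control libraries, against 0 to 4 with scramble ectosomes. The part of these markers in the results was not tested. PKM itself averaged 2313 ± 137 CPM with PKM2-knockdown ectosomes, 3500 ± 108 CPM with scramble ectosomes and 650.3 ± 195 CPM in control cells, all measured in THP-1 cells. It was lower with PKM2-knockdown than with scramble ectosomes (log2 -0.60, adjusted p = 0.0145) and higher with either than in control cells (log2 1.83 and 2.43). If the shRNA was in the Huh7 cells, these levels do not check the knockdown, and if it was in the THP-1 cells, the difference from scramble ectosomes would be that check. Counts per gene do not separate PKM2 from the other PKM isoforms.

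Almost the whole machinery was higher in cells given scramble ectosomes, and in cells given PKM2-knockdown ectosomes it lay close to the level of control cells. The 46 genes together took 0.899% ± 0.016 of a library's counts with PKM2-knockdown ectosomes, 3.10% ± 0.063 with scramble ectosomes and 1.01% ± 0.011 in control cells, and the ranges of the 3 groups did not overlap. Of the 46 genes, 42 were higher and 2 lower with scramble ectosomes than in control cells by edgeR's quasi-likelihood test (Benjamini-Hochberg adjusted p under 0.05), where 34.6% of all tested rows were called higher and 33.2% lower. In 34 of them the rise was at least 2-fold, which held for 18.1% of all rows, and the median change was 2.80-fold (log2 1.49, against -0.01 over all rows). With PKM2-knockdown against scramble ectosomes, 0 of the 46 were higher and 44 lower by the same test, beside 31.4% and 30.3% of all rows. All 46 estimates were negative, so 0 were higher at an unadjusted p as well, and DESeq2 also called 0 higher. In 36 the fall was at least 2-fold, against 10.8% of all rows, and the median change was 3.07-fold lower (log2 -1.62, against 0.03 over all rows). Scaling by library totals alone moved the median of all rows to -0.21 for scramble ectosomes against control cells and to 0.20 for PKM2-knockdown against scramble ectosomes. Of all calls, 40.2% (51.0% with TMM) and 61.9% (50.9% with TMM) were then higher, while the 46 genes gave 41 higher and 2 lower in the first of these and 0 higher and 44 lower in the second.

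PKM2-knockdown ectosomes against control cells gave a divided result: 10 genes were higher, 17 lower and 19 not called, where 27.0% of all rows were called higher and 26.7% lower. The median was log2 -0.10, against -0.01 over all rows. Of the 46 genes, 0 were higher by at least 2-fold, against 14.5% of all rows, and 3 were lower by at least 2-fold (XBP1, SEC11C and DERL3), against 7.22%. The 10 and 17 genes are 21.7% and 37.0% of the 46, the first below and the second above the background share of this comparison. These differences from the background were not tested. The groups were separated without overlap in 46 of 46 genes for PKM2-knockdown against scramble ectosomes, all lower, where 37.1% of all rows were wholly lower and 37.4% wholly higher. For scramble ectosomes against control cells 43 genes lay wholly higher and 2 wholly lower, beside 36.7% and 34.6% of all rows. For PKM2-knockdown ectosomes against control cells 13 lay wholly higher and 20 wholly lower, beside 30.7% and 29.8%. Each group of libraries enters more than 1 of these comparisons, so their values are given side by side and are not independent. Counts are relative within a library, and in bulk RNA fewer cells of a type and less RNA per cell cannot be told apart.

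**Figure D1:**
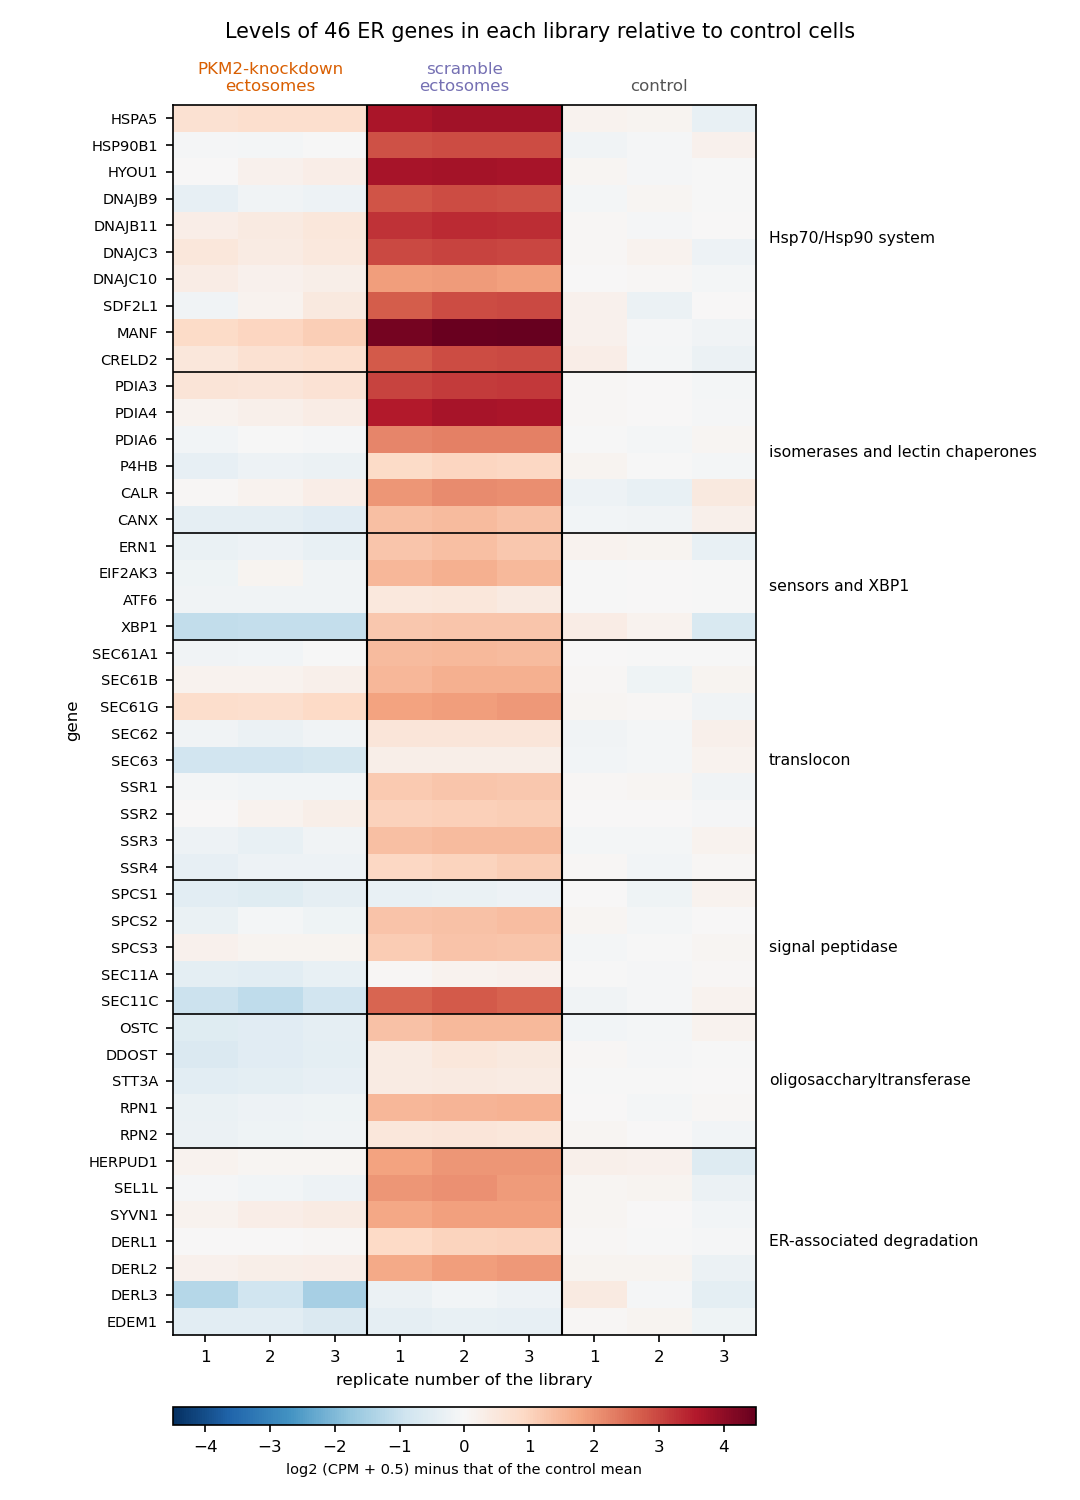
Level of each of the 46 genes (down the page, by role) in each library (across, by group and replicate), as log2 (CPM + 0.5) minus that of the control mean, red for higher and blue for lower. The scramble-ectosome columns are red for nearly all genes and darkest for MANF, HSPA5, HYOU1 and PDIA4, while the PKM2-knockdown-ectosome columns are pale, with XBP1, SEC63, SEC11C and DERL3 blue.

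**Figure D2:**
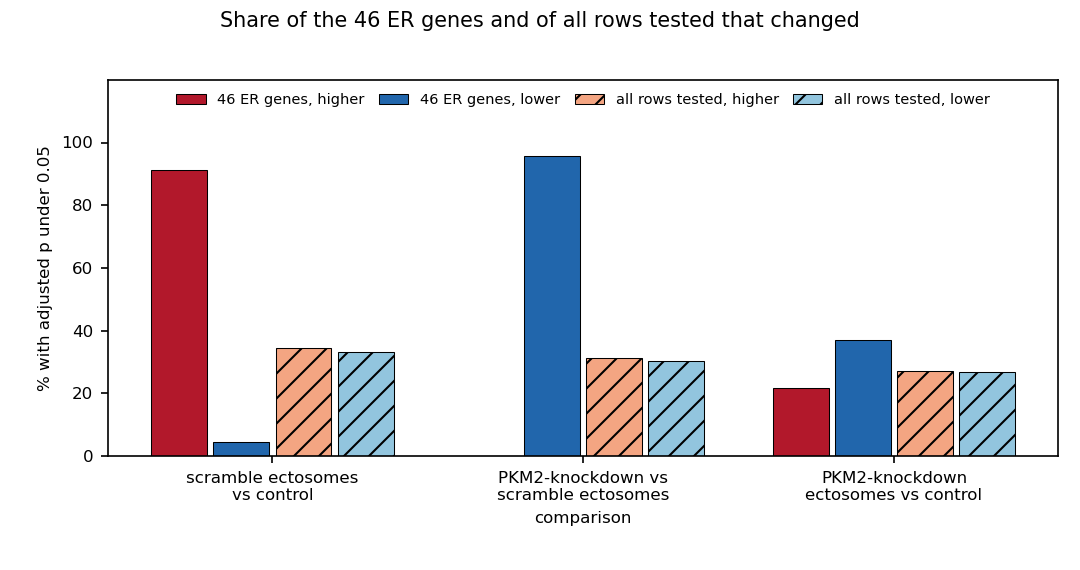
Percent of genes called higher and lower in each comparison, for the 46 genes beside all 18437 tested rows. The 46 genes stand at 91.3% higher for scramble ectosomes against control cells and at 95.7% lower for PKM2-knockdown against scramble ectosomes, beside 34.6% and 30.3% of all rows.

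A short promoter sequence that ATF6 and XBP1 are known to act through, found in 10 of the genes, is shown here as a description only. RefSeq promoters of GRCh38.p14, from 250 bases before to 50 after each start, were found for 41 of the 46 genes. PDIA3, RPN1, SPCS1, DERL1 and DERL3 were not matched. Each promoter was searched on both strands for 3 motifs: the ER stress response element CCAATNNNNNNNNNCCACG, bound by NF-Y with ATF6, the ER stress response element II ATTGGNCCACG, and TGACGTG, the core of the unfolded protein response element. The windows below run 5′ to 3′ along the strand of the gene, with 20 flanking bases, and capitals mark the ER stress response element (in HYOU1, HERPUD1 and SDF2L1 its second form), on either strand. A match is only a match of letters, and a promoter without one says nothing of a factor.
HSPA5: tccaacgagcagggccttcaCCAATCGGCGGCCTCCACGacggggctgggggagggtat
HSP90B1: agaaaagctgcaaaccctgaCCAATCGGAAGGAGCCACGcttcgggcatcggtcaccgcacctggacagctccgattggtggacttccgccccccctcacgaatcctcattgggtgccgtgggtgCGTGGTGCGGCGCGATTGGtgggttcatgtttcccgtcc
CALR: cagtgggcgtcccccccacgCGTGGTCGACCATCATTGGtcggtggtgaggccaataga
PDIA6: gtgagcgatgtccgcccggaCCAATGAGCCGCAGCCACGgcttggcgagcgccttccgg
CRELD2: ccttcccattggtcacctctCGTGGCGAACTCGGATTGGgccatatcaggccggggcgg
XBP1: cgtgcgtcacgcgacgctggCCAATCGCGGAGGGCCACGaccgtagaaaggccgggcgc
HYOU1: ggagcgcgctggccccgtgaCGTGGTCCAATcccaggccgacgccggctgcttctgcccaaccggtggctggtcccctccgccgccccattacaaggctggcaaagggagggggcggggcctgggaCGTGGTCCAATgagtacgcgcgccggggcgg
HERPUD1: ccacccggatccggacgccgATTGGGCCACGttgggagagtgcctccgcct
SDF2L1: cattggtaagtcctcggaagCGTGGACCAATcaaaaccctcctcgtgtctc

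The windows lie at chr9:125241371-125241429, minus strand (HSPA5), chr12:103930196-103930359, plus strand (HSP90B1), chr19:12938364-12938422, plus strand (CALR), chr2:10812833-10812891, minus strand (PDIA6) and chr22:49918534-49918592, plus strand (CRELD2). Those of the other genes lie at chr22:28800583-28800641, minus strand (XBP1), chr11:119057254-119057410, minus strand (HYOU1), chr16:56932005-56932055, plus strand (HERPUD1) and chr22:21642094-21642144, plus strand (SDF2L1). HSP90B1 and HYOU1 hold 2 copies each. The element reads in the direction of the gene in HSPA5, PDIA6, XBP1 and HERPUD1, in the opposite direction in CALR, CRELD2, HYOU1 and SDF2L1, and once each way in HSP90B1. CANX holds the element as well, in a window shared by several alternative starts.

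The ER stress response element was in 7 of the 41 genes (17.1%), against 0.0916% of the 27305 genes in the promoter table, and its second form in 3 (7.32%), against 0.0696%. Either form was thus in 10 of 41 genes (24.4%), against 0.161% of the 27305 genes. Of the 11329 tested genes with a promoter, 0.256% held either form. Both of these shares include the 10 genes themselves. The core TGACGTG was in DNAJC10, HYOU1, SEC61A1, SEC62, SSR3 and SSR4, or 14.6% of the 41, against 2.40% of all genes in the table, and in HYOU1 it overlaps 1 of the second-form elements. The 10 genes with either ER stress response element were all higher with scramble ectosomes than in control cells, by a median log2 of 2.57 (range 1.23 to 3.73), and all lower with PKM2-knockdown than with scramble ectosomes, by a median of -2.31. The 31 genes with a promoter but neither form had medians of 1.40 and -1.52, and 29 of them were higher in the first of these comparisons and 30 lower in the second. MANF and PDIA4, with rises among the steepest, were in this second set. The sets also differed in role, with no translocon, signal peptidase or oligosaccharyltransferase gene among the 10. Within the Hsp70 and Hsp90 chaperones and their co-factors, rises with scramble ectosomes over control cells overlapped. They ran from log2 2.90 to 3.73 with an element and from 1.90 to 4.43 without one. The difference between the sets was not tested.

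**Figure D3:**
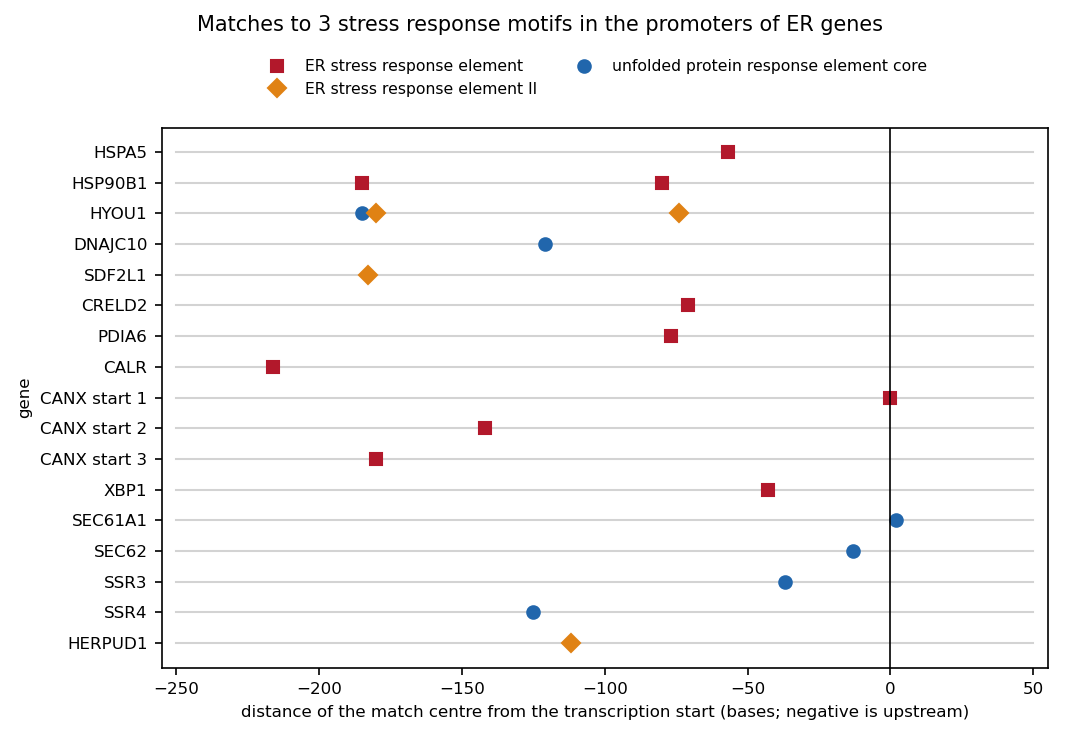
Position of each motif match, in bases from the RefSeq start, in the promoters of the genes that hold one. Matches of the ER stress response element run from 225 bases before the start in CALR to 34 before it in XBP1, apart from those of alternative CANX starts.

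Of the 7 role groups, the Hsp70 and Hsp90 chaperones and their co-factors had the median changes farthest from 0 in both comparisons with scramble ectosomes. All 10 were higher with scramble ectosomes than in control cells, with a median log2 of 2.98, and all 10 were lower with PKM2-knockdown than with scramble ectosomes, with a median of -2.95. HSPA5 (chr9:125234853-125241330, minus strand of GRCh38) encodes BiP, the Hsp70 chaperone of the ER lumen and a repressor of the 3 sensors. Its promoter is the first of those printed, with 1 ER stress response element. HSPA5 stood at 551, 579 and 580.3 CPM with PKM2-knockdown ectosomes, 4344, 4647 and 4664 CPM with scramble ectosomes, and 382, 369.6 and 275 CPM in control cells. Every library with scramble ectosomes thus lay far above the other 6, and the library with the lowest HSPA5 was control 3. HSPA5 was 13.3-fold higher with scramble ectosomes than in control cells (log2 3.73, SE 0.13, adjusted p = 4.04e-09) and 7.98-fold lower with PKM2-knockdown than with scramble ectosomes (log2 -2.997, SE 0.12, adjusted p = 3.65e-08). It was 1.67-fold higher with PKM2-knockdown ectosomes than in control cells (log2 0.74, SE 0.12, adjusted p = 3.37e-04). Without control 3 that difference was log2 0.60.

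MANF, a secreted and ER-retained cofactor of BiP (chr3:51385047-51389397, plus strand), had the steepest rise of the 46 genes. MANF stood at 52.6, 56.1 and 63 CPM with PKM2-knockdown ectosomes, 572, 634 and 644 CPM with scramble ectosomes, and 33.1, 27.3 and 25.5 CPM in control cells. The 3 groups did not overlap. It was 21.5-fold higher with scramble ectosomes than in control cells (log2 4.43, SE 0.13, adjusted p = 1.31e-09) and 10.8-fold lower with PKM2-knockdown than with scramble ectosomes (log2 -3.43, SE 0.12, adjusted p = 1.66e-08). It kept a 1.998-fold excess with PKM2-knockdown ectosomes over control cells (log2 0.998, SE 0.11, adjusted p = 3.49e-05). HYOU1, a large Hsp70-related exchange factor for BiP, stood at 219, 248 and 264 CPM with PKM2-knockdown ectosomes, 2780.3, 2905 and 2819.6 CPM with scramble ectosomes, and 227, 206 and 211 CPM in control cells. Its scramble-ectosome libraries lay 13.2-fold above control cells (log2 3.72, SE 0.10), and its PKM2-knockdown-ectosome libraries were not called against control cells (log2 0.18, adjusted p = 0.0925), except without PKM2-knockdown library 1 (log2 0.26). HSP90B1, which encodes the ER Hsp90 GRP94, averaged 376 ± 9.23 CPM with PKM2-knockdown ectosomes, 2959.8 ± 78.4 CPM with scramble ectosomes and 392 ± 51.7 CPM in control cells. Its change with PKM2-knockdown ectosomes against control cells was not called (log2 -0.06, adjusted p = 0.631).

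The J-domain proteins, which drive the ATP cycle of BiP, split against control cells. DNAJB11 averaged 52.1 ± 3.61 CPM with PKM2-knockdown ectosomes, 397 ± 14 CPM with scramble ectosomes and 39.2 ± 1.56 CPM in control cells, and DNAJC3, also an inhibitor of eIF2alpha kinases, averaged 61.8 ± 3.35 CPM with PKM2-knockdown ectosomes, 369 ± 8.77 CPM with scramble ectosomes and 45.4 ± 6.28 CPM in control cells. Both were higher with PKM2-knockdown ectosomes than in control cells, by log2 0.41 and 0.44 (adjusted p = 0.00124 and 0.00363), as was DNAJC10, which carries disulfide reductase domains, by 0.26 (adjusted p = 0.0107). DNAJB9, which represses IRE1 through BiP, went the other way. It stood at 9.57, 11.1 and 10.7 CPM with PKM2-knockdown ectosomes, 91.1, 100.1 and 97 CPM with scramble ectosomes, and 11.7, 13.5 and 12.4 CPM in control cells, with each library of PKM2-knockdown ectosomes below each control library. The difference was log2 -0.26 (adjusted p = 0.0377), a call that was lost in 10 of the alternative analyses, with adjusted p up to 0.138. Among these were the fits without control library 2 and without each of the 6 ectosome libraries. With scramble ectosomes all 4 J-domain genes were higher than in control cells, DNAJB9 7.65-fold (log2 2.94), DNAJB11 10.1-fold (log2 3.34), DNAJC3 8.12-fold (log2 3.02) and DNAJC10 3.72-fold (log2 1.90). SDF2L1, a partner of the J-domain proteins, averaged 34.4 ± 7.15 CPM with PKM2-knockdown ectosomes, 227 ± 20.6 CPM with scramble ectosomes and 30.5 ± 4.94 CPM in control cells. CRELD2, an ER-resident factor with isomerase activity, averaged 50.4 ± 4.24 CPM with PKM2-knockdown ectosomes, 238 ± 17.8 CPM with scramble ectosomes and 31.8 ± 6.97 CPM in control cells. CRELD2 was higher with PKM2-knockdown ectosomes than in control cells (log2 0.67, SE 0.14, adjusted p = 0.00217), while SDF2L1 was not called (log2 0.17, adjusted p = 0.383).

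**Figure D4:**
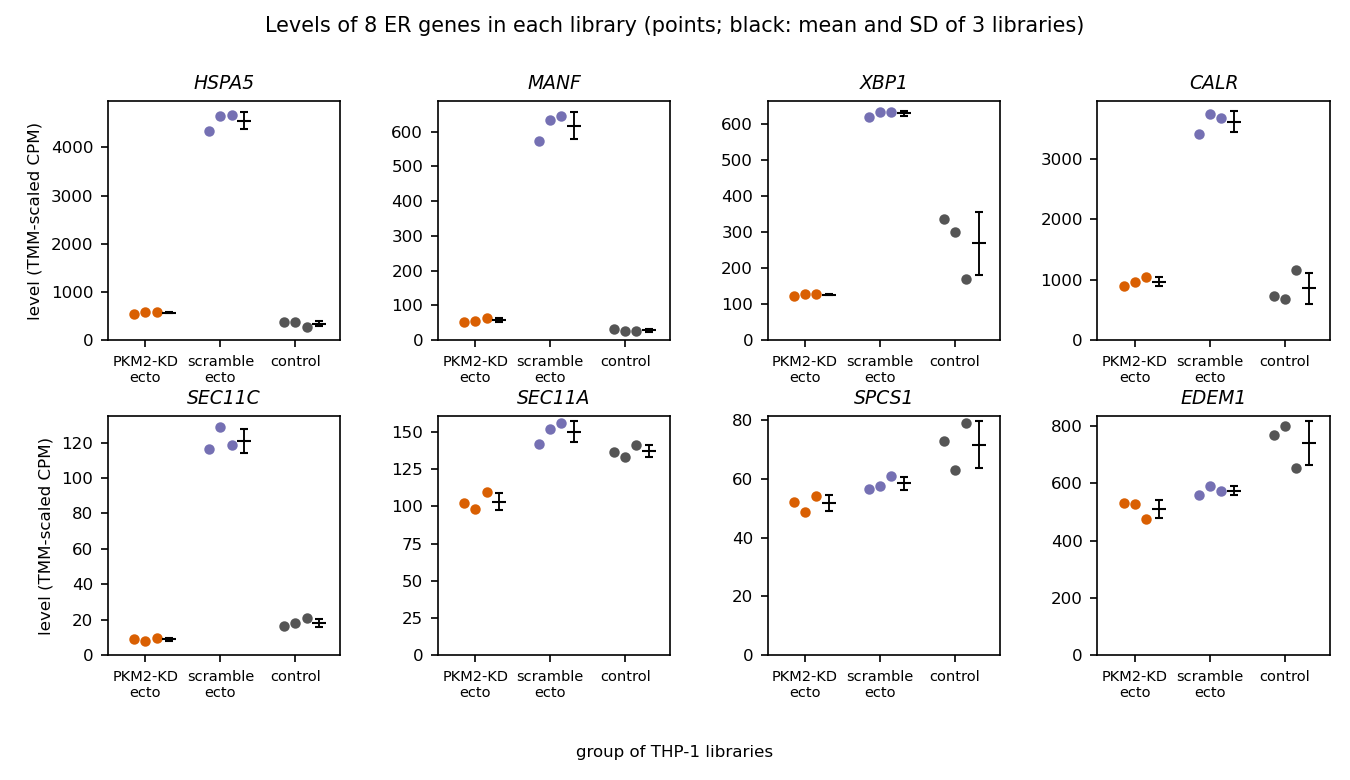
CPM of 8 of the genes in every library on a linear axis, with coloured points for libraries and black marks for the mean and SD of 3. PKM2-knockdown ectosomes are on the left, then scramble ectosomes and control cells. HSPA5 and MANF are highest with scramble ectosomes in every library, while XBP1 and SEC11C are lower with PKM2-knockdown ectosomes than in any control library.

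All 6 disulfide isomerases and lectin chaperones were higher with scramble ectosomes than in control cells, with a median log2 of 2.16, and lower with PKM2-knockdown than with scramble ectosomes, with a median of -2.11. The spread within the group was wide. PDIA4, a disulfide isomerase, stood at 102, 107 and 117 CPM with PKM2-knockdown ectosomes, 1096, 1211 and 1188 CPM with scramble ectosomes, and 94.3, 92.6 and 89 CPM in control cells. All 3 groups were apart. It was 12.7-fold higher with scramble ectosomes than in control cells (log2 3.66, SE 0.09, adjusted p = 4.90e-10). It was also higher in cells given PKM2-knockdown ectosomes than in control cells (log2 0.24, adjusted p = 0.0267), a call lost in 5 alternatives (adjusted p up to 0.1000), those without control library 2 and without PKM2-knockdown library 2 or 3 among them. P4HB, the classical protein disulfide isomerase and a subunit of prolyl hydroxylase, stood at 998, 1097 and 1079 CPM with PKM2-knockdown ectosomes, 2311, 2492 and 2445 CPM with scramble ectosomes, and 1387, 1262 and 1191 CPM in control cells. All 3 scramble-ectosome libraries were above the others, and the rise over control cells was 1.89-fold (log2 0.92, SE 0.08, adjusted p = 3.33e-06). P4HB was lower with PKM2-knockdown ectosomes than in control cells (log2 -0.27, adjusted p = 0.0167), but not without control library 1 or PKM2-knockdown library 1 (adjusted p up to 0.0706). P4HB was the most abundant of the 46 genes per kilobase of transcript in control cells, at 492 CPM per kb.

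The per-length order changed between groups for several chaperones. Calreticulin (CALR), the soluble lectin chaperone, stood at 507 CPM per kb with PKM2-knockdown ectosomes, 1897 with scramble ectosomes and 450.0 in control cells, ranks 1, 1 and 2 of 46. HSPA5 had 146, 1165 and 87.5 CPM per kb in the same groups, ranks 7, 2 and 13. MANF ranked 22, 7 and 29. CANX, the membrane-bound lectin chaperone, ranked 3, 5 and 3.

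CALR stood at 896, 955 and 1045 CPM with PKM2-knockdown ectosomes, 3411, 3741 and 3677 CPM with scramble ectosomes, and 737, 680.0 and 1152 CPM in control cells. Control 3 was well above the other control libraries and above all 3 libraries with PKM2-knockdown ectosomes, so these groups overlapped. CALR was 4.22-fold higher with scramble ectosomes than in control cells (log2 2.08, SE 0.18, adjusted p = 1.82e-06). It was not called with PKM2-knockdown ectosomes against control cells (log2 0.17, adjusted p = 0.416), but without control 3 it was higher by log2 0.44 (adjusted p = 1.92e-05, the lowest of the alternatives, of which the highest was 0.887). CANX stood at 912, 917 and 848 CPM with PKM2-knockdown ectosomes, 3059.7, 3203 and 2983 CPM with scramble ectosomes, and 1091, 1086 and 1419 CPM in control cells. It was higher with scramble ectosomes (log2 1.36, SE 0.11) and lower with PKM2-knockdown ectosomes (log2 -0.43, SE 0.11), each against control cells. PDIA3, the isomerase that works with both lectins, averaged 278 ± 8.52 CPM with PKM2-knockdown ectosomes, 1617 ± 72.1 CPM with scramble ectosomes and 185 ± 8.91 CPM in control cells, and PDIA6, which also damps IRE1 signalling, averaged 177 ± 6.88 CPM with PKM2-knockdown ectosomes, 876 ± 27 CPM with scramble ectosomes and 184 ± 11.6 CPM in control cells. PDIA3 was higher with PKM2-knockdown ectosomes than in control cells (log2 0.59, SE 0.08, adjusted p = 8.10e-05), and PDIA6 was not called (log2 -0.06, adjusted p = 0.522). PDIA3 has a processed pseudogene, PDIA3P1, at 98% identity over 1514 bases, and shares 627 exon bases with ELL3 on the other strand, so its level is uncertain.

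XBP1 was below its control level with PKM2-knockdown ectosomes, while the 3 sensors were not called there. All 4 genes were higher with scramble ectosomes than in control cells and lower with PKM2-knockdown than with scramble ectosomes, with median log2 of 1.26 and -1.61. XBP1 (chr22:28794555-28800597, minus strand), the transcription factor whose mRNA IRE1 splices, stood at 124, 127 and 129 CPM with PKM2-knockdown ectosomes, 621, 636 and 634 CPM with scramble ectosomes, and 337, 300.3 and 169 CPM in control cells. The libraries with PKM2-knockdown ectosomes lay below all control libraries, of which control 3 was the lowest. XBP1 was 2.34-fold higher with scramble ectosomes (log2 1.23, SE 0.20, adjusted p = 2.22e-04) and 2.12-fold lower with PKM2-knockdown ectosomes (log2 -1.09, SE 0.20, adjusted p = 8.46e-04), each against control cells. Without control 3 these values were log2 0.98 and -1.33. PKM2-knockdown against scramble ectosomes gave a 4.98-fold lower level (log2 -2.32, SE 0.20). Counts per gene do not separate spliced from unspliced XBP1 mRNA.

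ERN1, which encodes IRE1, averaged 28.7 ± 1.03 CPM with PKM2-knockdown ectosomes, 86 ± 3.73 CPM with scramble ectosomes and 35.3 ± 6.36 CPM in control cells. EIF2AK3, which encodes the kinase PERK, averaged 8.59 ± 1.17 CPM with PKM2-knockdown ectosomes, 26.7 ± 1.35 CPM with scramble ectosomes and 8.98 ± 0.167 CPM in control cells. ATF6 averaged 59.9 ± 0.685 CPM with PKM2-knockdown ectosomes, 92.2 ± 2.87 CPM with scramble ectosomes and 67 ± 0.625 CPM in control cells. In each of the 3, every library with scramble ectosomes was above all other libraries. The rises with scramble ectosomes over control cells were 2.43-fold for ERN1 (log2 1.28), 2.97-fold for EIF2AK3 (log2 1.57) and 1.38-fold for ATF6 (log2 0.46), all called. None of the 3 was called with PKM2-knockdown ectosomes against control cells, at log2 -0.30, -0.06 and -0.16 (adjusted p = 0.0531, 0.675 and 0.0516). Both ERN1 and ATF6 were called lower in 4 alternatives: without control 3 (log2 -0.44 and -0.17), with DESeq2 size factors, with library totals alone and by the DESeq2 Wald test. Over all alternatives the adjusted p ran from 2.68e-05 to 0.171 for ERN1 and from 0.0265 to 0.179 for ATF6.

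The 9 genes of the translocon and of the translocon-associated protein complex (SSR1 to SSR4) were all higher with scramble ectosomes than in control cells, with a median log2 of 1.21, and all lower with PKM2-knockdown than with scramble ectosomes, with a median of -1.29. SEC61A1, which encodes the channel itself, averaged 259 ± 11.9 CPM with PKM2-knockdown ectosomes, 744 ± 10.3 CPM with scramble ectosomes and 275 ± 5.51 CPM in control cells. SEC61B, a tail-anchored channel subunit, averaged 86.2 ± 3.35 CPM with PKM2-knockdown ectosomes, 227 ± 10.7 CPM with scramble ectosomes and 76.1 ± 8.71 CPM in control cells. SEC61G, the other small subunit, stood at 129.7, 126 and 138 CPM with PKM2-knockdown ectosomes, 261, 274 and 288 CPM with scramble ectosomes, and 78.4, 77.3 and 66.1 CPM in control cells. All 3 of its groups were apart, with PKM2-knockdown ectosomes in between. SEC61G was higher with scramble ectosomes (log2 1.89, SE 0.09, adjusted p = 2.58e-08) and with PKM2-knockdown ectosomes (log2 0.83, SE 0.09, adjusted p = 2.05e-05), each against control cells, while SEC61A1 and SEC61B were not called in the second of these (log2 -0.09 and 0.18, adjusted p = 0.298 and 0.122). Without control 3, SEC61B was called higher (log2 0.25).

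SEC62 and SEC63 form the complex that lets BiP and the channel take up proteins after their synthesis. SEC62 averaged 104 ± 4.0 CPM with PKM2-knockdown ectosomes, 172 ± 0.894 CPM with scramble ectosomes and 118.4 ± 17 CPM in control cells. SEC63, which recruits BiP through its J domain, stood at 127, 127 and 131 CPM with PKM2-knockdown ectosomes, 273, 276 and 275 CPM with scramble ectosomes, and 212, 217 and 259 CPM in control cells. Its scramble-ectosome and control libraries lay close together, and its libraries with PKM2-knockdown ectosomes were below both. SEC63 was 1.78-fold lower with PKM2-knockdown ectosomes than in control cells (log2 -0.83, SE 0.09, adjusted p = 1.89e-05). Its rise with scramble ectosomes was small (log2 0.26, adjusted p = 0.0195) and was not called in 6 alternative analyses, with adjusted p up to 0.517, those without control library 1 or 2 or scramble library 2 among them. A processed pseudogene, SEC63P1, matches it at 97.7% over 1259 bases. SSR3 averaged 88.3 ± 4.82 CPM with PKM2-knockdown ectosomes, 275 ± 8.93 CPM with scramble ectosomes and 104 ± 11.2 CPM in control cells, and SSR4 averaged 97.3 ± 5.55 CPM with PKM2-knockdown ectosomes, 238 ± 13.3 CPM with scramble ectosomes and 118.2 ± 7.68 CPM in control cells. Both were higher with scramble ectosomes (log2 1.40 and 1.01) and lower with PKM2-knockdown ectosomes (log2 -0.24 and -0.28), each against control cells. The fall of SSR3 against control cells rested on an adjusted p of 0.0429 and was lost in 9 alternatives (up to 0.186), those without control library 3 and without each ectosome library among them. That of SSR4 (adjusted p = 0.0141) was lost without PKM2-knockdown library 1 (up to 0.0634). SSR1 and SSR2 were not called there (log2 -0.12 and 0.14, adjusted p = 0.227 and 0.174), although SSR1 was called lower without control 3 (log2 -0.19).

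**Figure D5:**
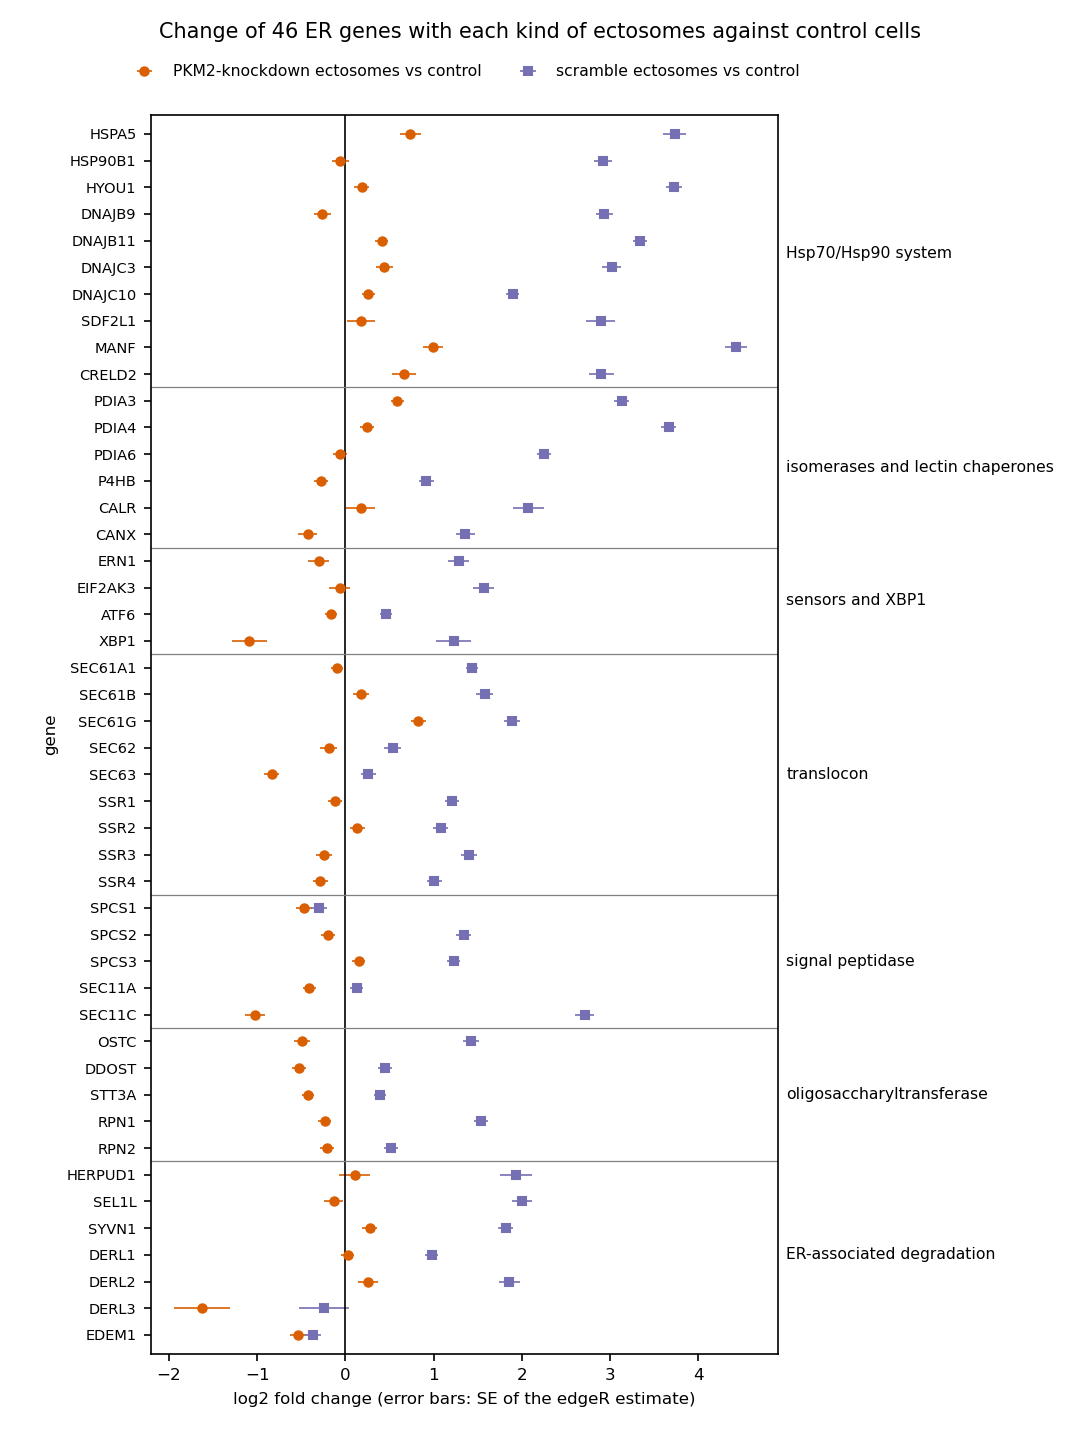
Log2 fold changes of the 46 genes with bars of 1 SE, for scramble ectosomes and PKM2-knockdown ectosomes, each against control cells, with genes down the page by role. Changes of scramble ectosomes against control cells run from -0.36 to 4.43, and those of PKM2-knockdown ectosomes against control cells scatter around 0.

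Signal peptidase contains 1 of 2 alternative catalytic subunits, SEC11A or SEC11C. SEC11C (chr18:59139477-59158836, plus strand) stood at 9.18, 8.16 and 9.91 CPM with PKM2-knockdown ectosomes, 116, 129 and 118.4 CPM with scramble ectosomes, and 16.5, 18 and 20.9 CPM in control cells. The scramble-ectosome libraries were above all others, and those with PKM2-knockdown ectosomes were below all control libraries. SEC11C was 6.57-fold higher with scramble ectosomes than in control cells (log2 2.72, SE 0.11, adjusted p = 8.65e-09) and 13.3-fold lower with PKM2-knockdown than with scramble ectosomes (log2 -3.74, SE 0.11, adjusted p = 8.20e-09), the steepest fall of the 46 genes. It was 2.03-fold lower with PKM2-knockdown ectosomes than in control cells (log2 -1.02, SE 0.11, adjusted p = 2.74e-05).

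SEC11A stood at 102, 98.1 and 109 CPM with PKM2-knockdown ectosomes, 142, 152 and 156 CPM with scramble ectosomes, and 136, 133 and 141 CPM in control cells. Its scramble-ectosome libraries lay just above those of control cells and were not called (log2 0.13, SE 0.07, adjusted p = 0.133), except without control 3 (log2 0.15), while its libraries with PKM2-knockdown ectosomes were lower than control cells (log2 -0.41, SE 0.07, adjusted p = 8.68e-04). Per kilobase of transcript, the ratio of SEC11C to SEC11A was 0.121 ± 0.0056 with PKM2-knockdown ectosomes, 1.11 ± 0.062 with scramble ectosomes and 0.185 ± 0.019 in control cells. The accessory subunit SPCS1 was 1 of the 2 genes lower with scramble ectosomes than in control cells. It averaged 51.6 ± 2.69 CPM with PKM2-knockdown ectosomes, 58.4 ± 2.19 CPM with scramble ectosomes and 71.6 ± 7.997 CPM in control cells (log2 -0.29, SE 0.09, adjusted p = 0.0141), and the call was lost without scramble-ectosome library 1 or 2 (adjusted p up to 0.0604). SPCS1 shares 2698 exon bases with NEK4 on the other strand, and the labels give no strand setting for the counting, so its reads cannot be told apart from those of NEK4. With PKM2-knockdown against scramble ectosomes SPCS1 was not called (log2 -0.18, adjusted p = 0.114), but was called lower without control 3 (log2 -0.18) and in the fit to only the libraries compared (log2 -0.16). SPCS2, another accessory subunit, averaged 78.7 ± 5.45 CPM with PKM2-knockdown ectosomes, 229 ± 10.9 CPM with scramble ectosomes and 90.4 ± 5.3 CPM in control cells, and SPCS3, whose yeast counterpart is needed for peptidase activity, averaged 109 ± 3.46 CPM with PKM2-knockdown ectosomes, 231 ± 12.7 CPM with scramble ectosomes and 98.6 ± 5.23 CPM in control cells. Both were higher with scramble ectosomes than in control cells (log2 1.34 and 1.23) and were not called with PKM2-knockdown ectosomes against control cells (log2 -0.20 and 0.15, adjusted p = 0.0608 and 0.118). Without control 3 both were called, at log2 -0.19 and 0.19, and SPCS2 also without control 2 (log2 -0.25) and with library totals alone (log2 -0.23). A processed pseudogene, SPCS2P4, matches SPCS2 at 99.1% over 684 bases, so its level is uncertain.

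Oligosaccharyltransferase genes had the lowest median of the 7 role groups with scramble ectosomes against control cells and were all lower with PKM2-knockdown ectosomes. All 5 were higher with scramble ectosomes than in control cells (median log2 0.52), all 5 were lower with PKM2-knockdown than with scramble ectosomes (median -0.98), and all 5 were lower with PKM2-knockdown ectosomes than in control cells (median -0.42). OSTC, the subunit that links the complex to the translocon, stood at 50.3, 50.8 and 55.1 CPM with PKM2-knockdown ectosomes, 184, 202 and 203 CPM with scramble ectosomes, and 67.3, 69.5 and 82.1 CPM in control cells. The 3 groups did not overlap. OSTC was 2.69-fold higher with scramble ectosomes (log2 1.43, SE 0.09, adjusted p = 2.35e-07) and 1.4-fold lower with PKM2-knockdown ectosomes (log2 -0.49, SE 0.09, adjusted p = 0.00111), each against control cells.

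RPN1, a ribophorin that presents substrates to the enzyme, averaged 196 ± 9.13 CPM with PKM2-knockdown ectosomes, 667 ± 20.9 CPM with scramble ectosomes and 229.9 ± 10.3 CPM in control cells. The rise with scramble ectosomes over control cells was log2 1.54 (adjusted p = 3.43e-08), beside that of the other ribophorin, RPN2, at log2 0.52 (adjusted p = 1.28e-04). The difference between these ribophorins was not tested. STT3A, the catalytic subunit that acts during translocation, averaged 279 ± 9.3 CPM with PKM2-knockdown ectosomes, 491 ± 8.53 CPM with scramble ectosomes and 375 ± 3.04 CPM in control cells (log2 0.39 with scramble ectosomes and -0.42 with PKM2-knockdown ectosomes, each against control cells). DDOST, a further core subunit, averaged 266 ± 19.6 CPM with PKM2-knockdown ectosomes, 524 ± 27.6 CPM with scramble ectosomes and 383 ± 16.1 CPM in control cells, with log2 0.45 and -0.53 in these comparisons. For PKM2-knockdown ectosomes against control cells, the calls of RPN1 (adjusted p = 0.0211) and RPN2 (0.0417) were lost in 4 and 10 alternatives, with adjusted p up to 0.0854 and 0.138. Both were lost without control library 1 and without PKM2-knockdown library 1 or 2, and RPN2 also without control library 2, without any 1 scramble library and with the replicate block (adjusted p = 0.073). DDOST shares 427 exon bases with PINK1-AS on its own strand.

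Of the 7 ERAD genes, 5 were higher and 1 lower with scramble ectosomes than in control cells (median log2 1.82), and 6 were lower with PKM2-knockdown than with scramble ectosomes (median -1.54). HERPUD1, a short-lived membrane protein that organises the retrotranslocation complex, stood at 75.7, 72.5 and 71.5 CPM with PKM2-knockdown ectosomes, 242, 269 and 269.9 CPM with scramble ectosomes, and 79.96, 78.7 and 45.3 CPM in control cells. Control 3 was much lower than the other control libraries. With PKM2-knockdown ectosomes HERPUD1 was not called against control cells (log2 0.11, adjusted p = 0.635). HERPUD1 was 3.82-fold higher with scramble ectosomes than in control cells (log2 1.94, SE 0.18, adjusted p = 3.59e-06), and log2 1.71 without control 3. SYVN1, the ubiquitin ligase HRD1, averaged 69.2 ± 5.13 CPM with PKM2-knockdown ectosomes, 201 ± 8.6 CPM with scramble ectosomes and 57.1 ± 3.73 CPM in control cells. SEL1L, its adaptor, averaged 118.2 ± 8.003 CPM with PKM2-knockdown ectosomes, 518 ± 26 CPM with scramble ectosomes and 129 ± 19.3 CPM in control cells. SYVN1 was higher with PKM2-knockdown ectosomes than in control cells (log2 0.28, SE 0.08, adjusted p = 0.0161), though not without PKM2-knockdown library 3 (adjusted p = 0.0627, the highest of the alternatives), but SEL1L was not called (log2 -0.13, adjusted p = 0.344), and without control 3 it was lower (log2 -0.25; adjusted p from 0.0032 to 0.706 over the alternatives). SYVN1 shares 398 exon bases with the ribosomal protein gene FAU on its own strand.

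The derlins, membrane proteins of the retrotranslocation channel, divided. DERL1 averaged 86.9 ± 1.86 CPM with PKM2-knockdown ectosomes, 168 ± 7.69 CPM with scramble ectosomes and 85.4 ± 3.28 CPM in control cells, and DERL2 averaged 33.3 ± 0.914 CPM with PKM2-knockdown ectosomes, 101.4 ± 8.62 CPM with scramble ectosomes and 27.9 ± 4.35 CPM in control cells. Both were higher with scramble ectosomes than in control cells (log2 0.98 and 1.86) and not called with PKM2-knockdown ectosomes against control cells (log2 0.03 and 0.26, adjusted p = 0.784 and 0.0829), though DERL2 was higher without control 2 (log2 0.33). DERL3 was scarce, at 0.736, 1.13 and 0.577 CPM with PKM2-knockdown ectosomes, 2.03, 2.26 and 2.11 CPM with scramble ectosomes, and 3.46, 2.41 and 1.71 CPM in control cells. Its scramble-ectosome and control libraries overlapped (log2 -0.25, adjusted p = 0.459), and its PKM2-knockdown-ectosome libraries were below both, by log2 -1.62 (SE 0.32, adjusted p = 0.00141) against control cells. DERL3 shares 2923 exon bases with SMARCB1 on the other strand, so its level is uncertain. EDEM1, which extracts misfolded glycoproteins from folding cycles, was lower with both kinds of ectosomes than in control cells. It stood at 530.1, 527 and 475 CPM with PKM2-knockdown ectosomes, 559, 592 and 572 CPM with scramble ectosomes, and 766, 798 and 652 CPM in control cells. Both ectosome groups were below control cells, by log2 -0.53 with PKM2-knockdown ectosomes and -0.36 with scramble ectosomes (adjusted p = 6.14e-04 and 0.0046). The difference between them was not called (log2 -0.17, adjusted p = 0.131), but EDEM1 was called lower without control 3 (log2 -0.17) and in the fit to only the libraries compared (log2 -0.15).

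Other ER genes, in 5 lists that share no gene with the 46, were set against the same background shares, 34.6% of all rows higher and 33.2% lower with scramble ectosomes against control cells, and 31.4% higher and 30.3% lower with PKM2-knockdown against scramble ectosomes. Of 31 other folding enzymes and chaperones, 19 (61.3%) were higher and 5 (16.1%) lower in the first of these comparisons, and 2 (6.45%) were higher and 23 (74.2%) lower in the second (median log2 0.77 and -1.01). PPIB, a prolyl isomerase of the ER, averaged 125 ± 10.3 CPM with PKM2-knockdown ectosomes, 457 ± 17 CPM with scramble ectosomes and 105 ± 7.35 CPM in control cells (log2 2.13, SE 0.09, adjusted p = 1.27e-08 for scramble ectosomes against control cells). PDIA5, a disulfide isomerase, was lower with PKM2-knockdown than with scramble ectosomes (log2 -2.27, SE 0.11, adjusted p = 9.23e-08). Against control cells, PKM2-knockdown ectosomes gave 7 higher (22.6%) and 12 lower (38.7%), beside 27.0% and 26.7% of all rows, and 2 examples ran far apart. ERO1A, the oxidase that recharges disulfide isomerases, averaged 122 ± 2.08 CPM with PKM2-knockdown ectosomes, 117 ± 5.53 CPM with scramble ectosomes and 50.003 ± 2.35 CPM in control cells (log2 1.28, SE 0.07, adjusted p = 2.61e-07). ERP29, a chaperone of the isomerase family, averaged 92.4 ± 5.79 CPM with PKM2-knockdown ectosomes, 118.4 ± 5.88 CPM with scramble ectosomes and 281 ± 39.1 CPM in control cells (log2 -1.60, SE 0.11, adjusted p = 7.57e-07).

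Of 23 other ERAD genes analysed, of 24 listed, 16 (69.6%) were higher and 3 (13.0%) lower with scramble ectosomes than in control cells (median log2 0.74), and 3 (13.0%) were higher and 16 (69.6%) lower with PKM2-knockdown than with scramble ectosomes (median -0.37). SELENOK and SELENOS, selenoproteins of the ERAD complex, were lower with PKM2-knockdown than with scramble ectosomes by log2 -2.18 and -1.79 (adjusted p = 6.83e-08 and 1.31e-07). Of 26 other genes of targeting, translocation and membrane insertion, 15 (57.7%) were higher and 5 (19.2%) lower with scramble ectosomes than in control cells (median 0.40). With PKM2-knockdown against scramble ectosomes, 2 (7.69%) were higher and 17 (65.4%) lower (median -0.52). GET1 of this list was read from a row named CHD5, an older symbol of GET1 that also names an unrelated gene. That row may not measure GET1, but it is included in these counts and medians. It was called lower than in control cells with scramble ectosomes (log2 -2.06) and with PKM2-knockdown ectosomes (log2 -1.45). TRAM1, which contacts the nascent chain at the channel, averaged 158 ± 4.92 CPM with PKM2-knockdown ectosomes, 941 ± 17.4 CPM with scramble ectosomes and 171 ± 16.2 CPM in control cells, and was lower with PKM2-knockdown than with scramble ectosomes (log2 -2.57, SE 0.09, adjusted p = 1.49e-08).

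N-glycosylation genes beyond the 5 above gave 11 higher (42.3%) and 7 lower (26.9%) of 26 analysed, of 27 listed, for scramble ectosomes against control cells (median log2 0.11), shares near the background. For PKM2-knockdown against scramble ectosomes they gave 3 higher (11.5%) and 15 lower (57.7%), with a median of -0.40. MAGT1, a subunit of the oligosaccharyltransferase built on STT3B, was higher with scramble ectosomes than in control cells (log2 1.87, SE 0.07, adjusted p = 8.65e-09). Of 15 other signalling genes of the unfolded protein response analysed, of 16 listed, 12 (80%) were higher and 1 (6.67%) lower with scramble ectosomes than in control cells (median 1.22), and 1 (6.67%) was higher and 12 (80%) lower with PKM2-knockdown than with scramble ectosomes (median -1.0). The exception was ATF6B, a relative of ATF6, at log2 -1.14 (adjusted p = 5.19e-07) and 1.24 (adjusted p = 6.14e-07). ATF3, a transcription factor downstream of PERK and other stress pathways, averaged 11.6 ± 0.667 CPM with PKM2-knockdown ectosomes, 129.8 ± 2.05 CPM with scramble ectosomes and 3.03 ± 1.72 CPM in control cells (log2 5.39, SE 0.30, adjusted p = 7.32e-08). In PKM2-knockdown ectosomes against control cells the ERAD list gave 7 higher and 7 lower (30.4% each) and the signalling list 4 and 4 (26.7% each), near the background. The targeting list gave 2 higher (7.69%) and 11 lower (42.3%), with the uncertain row read as GET1 among the lower. The N-glycosylation list gave 6 higher (23.1%) and 12 lower (46.2%).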

How the data were processed

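Values deposited by the authors for the 9 THP-1 libraries were unnormalized counts of reads, by gene symbol. In the submitters' processing notes, HISAT2 2.0.5 and featureCounts 1.5.0-p3 are named beside the builds GRCh38 and hg38. RNA was extracted with Trizol and libraries were made with a NEBNext Ultra kit, per the labels' protocols. Neither the annotation release nor the strand setting is given in the sources used here, and overlapping genes on either strand could not be told apart. This also holds for genes whose overlaps are not given above. Examples on the other strand are PDIA6 with ATP6V1C2 (1033 shared exon bases), EIF2AK3 with AC104134.1 (781), HYOU1 with AP003392.3 (666) and EDEM1 with AC026202.3 (653). DNAJB11 shares 451 exon bases with AC068631.2 on its own strand.

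Counts were tested with edgeR 4.0.16 in R 4.3.3. filterByExpr by group kept 18437 of 30000 rows (at least 99.8% of the counts of each library), and after TMM scaling 1 quasi-likelihood model of group alone was fitted to all 9 libraries (6 residual degrees of freedom, common biological coefficient of variation 13.3%). Tests were two-sided, with Benjamini-Hochberg adjustment over all rows tested and a threshold of 0.05, and every adjusted p is from this test unless another is named. The SE of a log2 fold change was approximated from its F statistic. Alternatives included DESeq2 1.42.0. The fitting script was run on simulated counts in which 100 genes changed 2-fold and 100 changed 4-fold, in the scramble group only. Far more rows were called in the real data, so that run does not test the scaling used here. Lengths, coordinates and overlaps came from GENCODE release 29, with CPM per kb taken over the longest principal coding transcript. Promoters were read from RefSeq.

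By the naming rule, all 46 genes may be named whatever their result, and of every other ER list up to 3 genes per comparison with the smallest p past the threshold, some of which serve as examples. GET1 is named outside this rule, for its uncertain row only. Genes outside the 46 that hold an ER stress response element, in the closing observations, are also named outside it. The genes, lists and roles were chosen with earlier results of these data known. No protein sequence was used here.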

Additional observations from a re-analysis of the deposited data

Results flagged for a closer look

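In 13 of the 46 genes both kinds of ectosomes differed from control cells, and in opposite directions: lower with PKM2-knockdown ectosomes and higher with scramble ectosomes. These are 28.3% of the 46 genes, and 574 of all 18437 tested rows (3.11%) had the same calls. Of the 46 genes, 42 were called higher with scramble ectosomes and 17 lower with PKM2-knockdown ectosomes, each against control cells. A large overlap of these calls follows from those counts alone, so the excess over all rows is no separate result. The comparison of PKM2-knockdown with scramble ectosomes gives the difference between both effects. It uses the same libraries as the calls that chose the 13, which fix its direction, so its values are a description. The log2 difference was -3.74 for SEC11C, -3.20 for DNAJB9, -2.32 for XBP1 and -1.92 for OSTC. For CANX it was -1.79, for RPN1 -1.77, for SSR3 -1.64, for SSR4 -1.29 and for P4HB -1.19. For SEC63 it was -1.09, for DDOST -0.98, for STT3A -0.81 and for RPN2 -0.73. Both effects are set against the same 3 control libraries. Against control cells, 7 of the 13 did not keep both calls in the other fits: DNAJB9, RPN2, SSR3, RPN1, P4HB and SSR4 lost the fall with PKM2-knockdown ectosomes in at least 1 of them, and SEC63 lost the rise with scramble ectosomes. The other 6, CANX, XBP1, SEC11C, OSTC, DDOST and STT3A, kept both calls in every alternative fit run.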

How the results depend on the processing

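The alternatives were DESeq2 size factors, scaling by library totals alone, no filter on low counts, the DESeq2 Wald test, a fit to only the libraries compared, a block for the replicate number, leaving out each library, and a 2-fold minimum. No called change of the 46 genes turned round in any of them. Calls against control cells with PKM2-knockdown ectosomes were the least stable: the 2-fold minimum apart, 8 genes lost theirs in at least 1 alternative and 10 gained one. Leaving out 1 library gave 41 to 43 genes higher and 1 to 2 lower for scramble ectosomes against control cells, 0 to 0 higher and 44 to 46 lower for PKM2-knockdown against scramble ectosomes, and 8 to 13 higher and 11 to 21 lower for PKM2-knockdown ectosomes against control cells, where 11 came without PKM2-knockdown library 1. The fall count of 2 with scramble ectosomes became 1 without scramble library 1 or 2. Over all rows, those calls ran from 11485 to 13640, from 10175 to 13617 and from 8399 to 10997. With the 2-fold minimum, PKM2-knockdown ectosomes against control cells kept 0 genes higher and 3 lower, and scramble ectosomes against control cells 0 lower.

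Estimates that changed sign were small and not called on the other side. By library totals alone, SEC11A was at log2 -0.073 for scramble ectosomes against control cells, EDEM1 at 0.0057 for PKM2-knockdown against scramble ectosomes and DERL1 at -0.0067 for PKM2-knockdown ectosomes against control cells. Leaving out 1 library, the last comparison ran from -0.14 to 0.049 (HSP90B1), from -0.12 to 0.23 (HERPUD1) and from -0.00051 to 0.052 (DERL1), with the sign turned round without control 3, and DERL3 ran from -0.45 to 0.034 for scramble ectosomes against control cells, with the sign turned round without control 1. The cause was not tested. 

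Same-numbered libraries did not deviate together: correlations of their deviations from group means ran from -0.134 to 0.095, and in 5 of 18 cases a library correlated best with its own number in another group. With the replicate block the 46 genes gave 42 higher and 2 lower, 0 and 44, and 10 and 16. Without control 3 the counts were 43 and 2, 0 and 46, and 13 and 21. Depth limits mainly DERL3, the scarcest of the 46.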

Other observations

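Outside the 46 genes, 19 tested genes had an ER stress response element of either form in a RefSeq promoter. ALG12, ERO1B and SERP1 of these were already counted in the other ER lists above. ALG12 shares 168 exon bases with CRELD2 of the 46 on the other strand, so both may hold the same element. With scramble ectosomes against control cells 13 of the 19 were higher and 4 lower (median log2 0.52), and with PKM2-knockdown against scramble ectosomes 4 were higher and 11 lower (median -0.44). The 11269 tested genes outside the 46 with a promoter and no element gave 4283 higher and 3788 lower in the first of these comparisons (median 0.04), and 3495 higher and 3904 lower in the second (median -0.05). ERO1B, an ER oxidase, was higher with scramble ectosomes than in control cells by log2 2.64 and lower with PKM2-knockdown than with scramble ectosomes by -1.81 (adjusted p = 5.39e-08 and 1.20e-06, edgeR). FICD, which AMPylates BiP, had 1.43 and -1.28 (adjusted p = 1.71e-05 and 5.16e-05). SYNPO and ZNF17 hold an element too and were higher with PKM2-knockdown than with scramble ectosomes, by log2 2.13 and 0.88 (adjusted p = 1.67e-05 and 0.0019). These examples were chosen after their values were seen.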
